A study of Homo sapiens with 6 samples.

Results

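The 33 genes described here encode the machinery that folds secreted and membrane proteins in the endoplasmic reticulum (ER), together with the sensors that adjust it. They were taken by name, for what they are known to do, from the 56303 genes of a count table. The choice was made with earlier results of these data known. The table holds RNA-seq of 786-O, a long-established human line from a clear cell renal carcinoma that lacks functional VHL, in 2 groups of 3 libraries. The siNFE2L3 group was transfected with an siRNA against the transcription factor NFE2L3 and is labelled 48 h, and the siControl group received a control siRNA and is labelled 0 h. The effects of the siRNA and of the labelled time cannot be told apart. In 2 siNFE2L3 libraries the genotype label ends in another number, although their titles and source names give NFE2L3. All cells are of this 1 line, and the sources used here do not name the NFE2L3 siRNA that was used. The study's general note on statistics speaks of independent trials but does not tie this to the RNA-seq libraries, so the spread behind the p-values may be technical alone.

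Proteins enter the ER through the SEC61 channel and are folded there by chaperones of the HSP70 and HSP90 families, by lectins that read their sugar chains, and by isomerases that form and reshuffle disulfide bonds. Chains that do not fold are sent back to the cytosol and degraded by the proteasome, a route called ER-associated degradation. When unfolded chains build up, the sensors IRE1, ATF6 and PERK start the unfolded protein response, in which the spliced form of XBP1 and the cleaved form of ATF6 switch on many of these same chaperone and degradation genes.

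Knockdown was seen in every library, since NFE2L3 was at 19.8 ± 0.881 CPM (the usual scaling of counts to library size, after TMM, a correction for library composition) in siNFE2L3 cells and at 114.7 ± 1.96 CPM in siControl cells (SD, n = 3 each). Library totals ran from 51828446 to 56806368 counts in the siNFE2L3 group and from 53051297 to 57391929 in the siControl group. Of 10 renal carcinoma markers, 9 had at least 10 counts in every library, and CA9 was at or near 0. Among those 9, NDUFA4L2 was low, with 22 to 52 counts per library. The summed level of the 10 markers was 2421 to 2512 CPM in siNFE2L3 libraries and 2711 to 2768 CPM in siControl libraries. The part of this difference in the results was not tested. Markers of leukocytes, endothelium and hepatocytes did not exceed 25 counts, and their summed level was 0.701 to 0.931 CPM in siNFE2L3 libraries and 0.346 to 1.13 CPM in siControl libraries, with CDH5 at 0 throughout.

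With NFE2L3 lowered, the ER folding genes as a set stayed close to their control level. Of the 33 genes, 32 passed the filter on low counts and were tested. The ER-associated degradation gene DERL3 had 0 to 2 counts per library, under the 3 counts taken as the floor, and was not tested. By edgeR's quasi-likelihood test with an adjusted p under 0.05 over all 19916 tested genes, the count was 7 lower and 4 higher among the 32, which left 21 that did not pass. Lower were ERN1, HSPA5, SEC61A1, SEC61B, SEL1L, EDEM1 and DERL2, and higher were P4HB, DNAJC10, DNAJB9 and CRELD2. The 7 lower genes are 21.9% of those tested, beside 14.0% of all tested genes, and the 4 higher genes are 12.5%, beside 12.7%. In both directions together the share was 34.4%, beside 26.7%. These genes are well expressed, and among the 10546 genes at or above the level of the lowest of them, 7.25 CPM, 22.2% were lower and 18.1% were higher. Beyond this floor, those genes were not matched to the folding genes in abundance. Beside them the share of 21.9% was near 22.2%, and that of 12.5% was below 18.1%. These shares were not tested against each other. In bulk RNA, fewer cells with a transcript and less of it per cell cannot be told apart. With upper quartile scaling of the libraries the split was 5 lower and 5 higher.

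The changes were small. None of the 32 genes reached a fold of 2 with an unadjusted p under 0.05, a cutoff that 1.10% of all tested genes passed. The median log2 fold change was -0.014, beside -0.00066 over all tested genes. The median size of the change regardless of sign was 0.085, beside 0.157 over all tested genes. Of those 19916 genes only 10546 were at or above the CPM of the lowest tested member. No median was taken over these alone, so the 2 sizes are not compared at a like level. The groups of libraries did not overlap in 15 of the 32 genes, 9 lower and 6 higher. They did not overlap in 7870 of all 19916 tested genes (39.5%), 4065 lower and 3805 higher. The 2 were not tested against each other. Of the 21 genes that did not pass, 20 had a 95% interval that lay within a fold of 1.2 in either direction, the exception being EDEM2. The 33 genes together took 1.43 ± 0.0288% of all counts in siNFE2L3 cells and 1.42 ± 0.00396% in siControl cells.

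**Figure D1:**
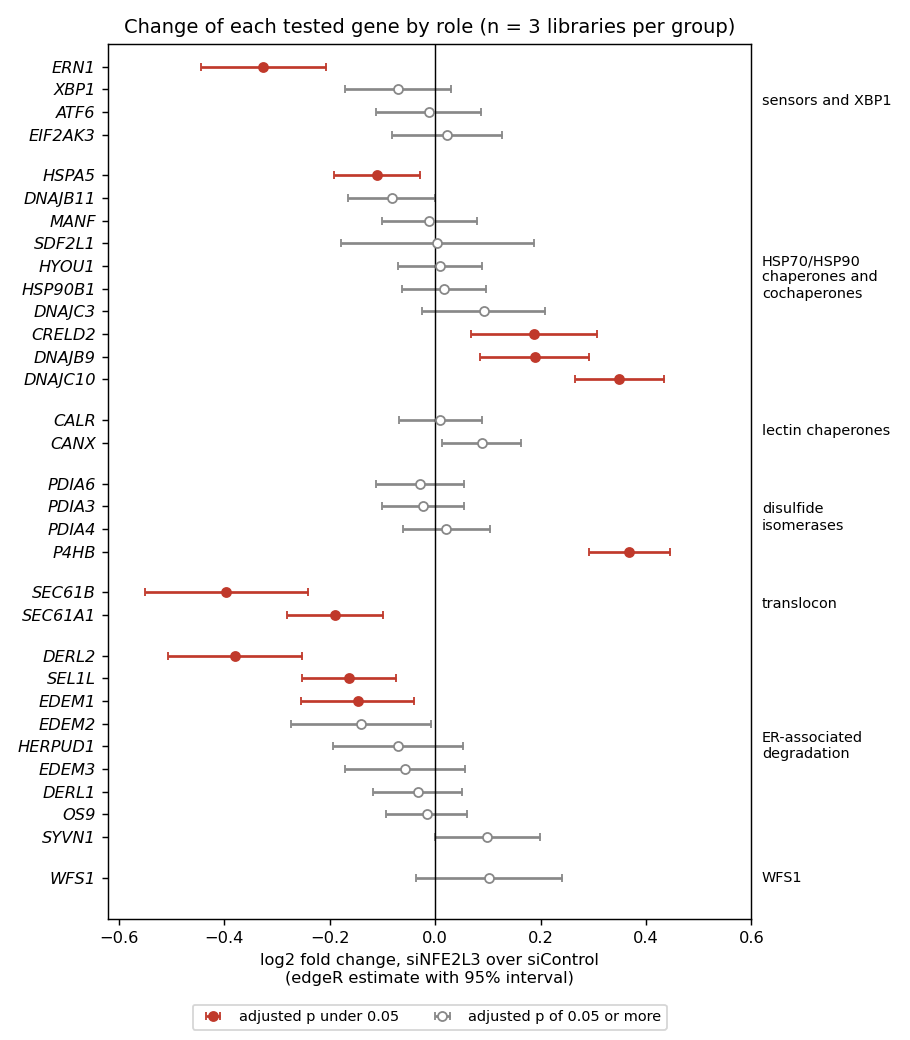
Log2 fold change of siNFE2L3 over siControl for the 32 tested genes, grouped by role, as edgeR estimates with 95% intervals from 3 libraries per group. Filled red points are the 11 genes with an adjusted p under 0.05, and the estimates run from -0.40 for SEC61B to 0.37 for P4HB.

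Levels differed widely between the genes. As reads per kilobase of exon and per scaled library unit (RPKM, from CPM and the exon length), HSP90B1, the HSP90 of the ER, was the most abundant at 918 ± 45.6 RPKM in siNFE2L3 cells and 907 ± 13.3 RPKM in siControl cells. The calcium-binding lectins CALR and CANX and the HSP70 chaperone HSPA5 followed. CALR was at 472 ± 18.3 RPKM in siNFE2L3 cells and 469 ± 7.49 RPKM in siControl cells, and CANX was at 365 ± 8.28 RPKM in siNFE2L3 cells and 344 ± 8.11 RPKM in siControl cells. HSPA5 was at 323 ± 6.94 RPKM in siNFE2L3 cells and 349 ± 17.1 RPKM in siControl cells. In siNFE2L3 cells CANX was above HSPA5 by more than their SD, and in siControl cells they did not differ beyond it. PDIA4, PDIA3, P4HB, OS9, XBP1, PDIA6, DNAJB11, HYOU1 and MANF came next, and these 13 genes all averaged 42.1 RPKM or more over the 6 libraries. The other 19 averaged 2.14 to 15.6 RPKM, with the sensor ERN1 the lowest. Of the 13 abundant genes 2 were called, with a median absolute log2 fold change of 0.023, and of the other 19 genes 9 were called, with a median of 0.14. That split was drawn after the values were seen and was not tested. Of the 31 pairs of neighbours in the order, 3 lay within the larger SD of the pair in both groups, and these were PDIA4 and PDIA3, EDEM1 and EDEM3, and EDEM3 and ATF6.

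**Figure D2:**
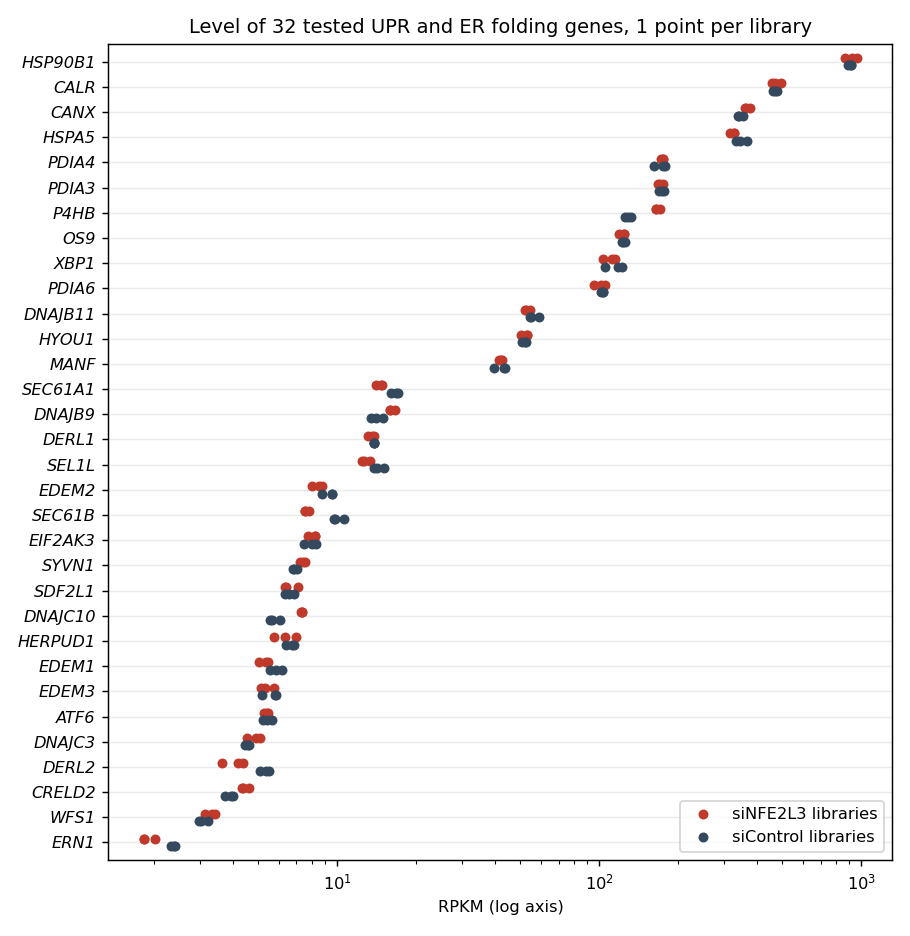
RPKM per library on a log axis for the 32 tested genes, sorted by mean, with siNFE2L3 libraries in red drawn just above siControl libraries in dark blue. HSP90B1 stands at the top and ERN1 at the bottom, and the 2 groups overlap in all but 15 of the genes.

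Many genes of this response carry a short promoter sequence, the ER stress response element (ERSE), which ATF6 and XBP1 are known to bind. Promoters were read from RefSeq on GRCh38.p14 as the 250 bases before and 50 after each annotated start, and 30 of the 33 genes matched, with 37 promoters in all. The exact ERSE, which is CCAAT, any 9 bases and CCACG on either strand, was in 9 of the 37 promoters, that is 24.3%, beside 0.0769% of the 35116 promoters of the table, and these 9 belong to 7 genes. ERSE-II, which is ATTGG, any 1 base and CCACG, was in 3 promoters of 3 genes, that is 8.11%, beside 0.0541%. Overlapping promoters of CANX hold the same site, so it counts more than 1 time among the 9. The sites are shown as a description of these genes, first the ERSE and then the ERSE-II sites. They are written in the direction of the gene with 5 bases on each side and the element in capitals. Where the element lies on the other strand it reads as its reverse complement, starting with CGTGG.
HSPA5, chr9:125241391-125241409: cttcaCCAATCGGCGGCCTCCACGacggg
HSP90B1, chr12:103930216-103930234: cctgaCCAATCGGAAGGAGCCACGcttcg
HSP90B1, chr12:103930321-103930339: gggtgCGTGGTGCGGCGCGATTGGtgggt
CALR, chr19:12938384-12938402: ccacgCGTGGTCGACCATCATTGGtcggt
CANX, chr5:179698778-179698796: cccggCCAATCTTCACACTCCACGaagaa
PDIA6, chr2:10812853-10812871: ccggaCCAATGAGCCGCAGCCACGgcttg
CRELD2, chr22:49918554-49918572: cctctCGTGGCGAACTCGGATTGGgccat
XBP1, chr22:28800603-28800621: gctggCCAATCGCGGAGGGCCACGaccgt
HERPUD1, chr16:56932025-56932035: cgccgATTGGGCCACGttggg
HYOU1, chr11:119057274-119057284: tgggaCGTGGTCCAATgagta
HYOU1, chr11:119057380-119057390: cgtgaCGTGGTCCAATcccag
SDF2L1, chr22:21642114-21642124: ggaagCGTGGACCAATcaaaa

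Of the 10 genes with an ERSE or ERSE-II, HSPA5 was lower and CRELD2 was higher, and their log2 fold changes ran from -0.11 to 0.19 with a median of 0.0069. Of the 20 matched genes with neither, 6 were lower and 3 were higher, and theirs ran from -0.40 to 0.37 with a median of -0.014. Of all tested genes 26.7% were called, and 40.3% of those with a mean CPM at or above that of the lowest tested member. The groups also differed in level, since 7 of the 10 genes with an element and 5 of the 20 without were among the 13 most abundant. The 2 groups of genes were not tested against each other, and the part of the level was not tested. The 5 letters CCACG alone were in 27 of the 37 promoters, 73.0%, beside 38.1% of all promoters. The UPRE, TGACGTGG, was in DNAJC10 and in HYOU1, where it overlaps an ERSE-II site, that is in 5.41% of the 37 promoters beside 0.729% of all promoters.

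NFE2L3 belongs to the family of factors that bind the antioxidant response element with a small MAF partner. The core of that element, TGAC, any 3 bases and GC, was in 8 of the 37 promoters, 21.6%, beside 13.3% of all promoters. The 7 genes they belong to were CALR, CANX, CRELD2, DNAJC10, ERN1, SDF2L1 and SEL1L. Of them ERN1 and SEL1L were lower, CRELD2 and DNAJC10 were higher, and the others did not pass. Of all tested genes 26.7% were called, and 40.3% of those at or above the CPM of the lowest tested member. Whether the core has a part in these changes was not tested. The whole windows of HSPA5, the hallmark gene, and of DNAJC10 and P4HB, the pair with the largest rises, are given on the strand of the gene with these elements in capitals. In DNAJC10 the capitals are a core that overlaps a UPRE, both read on the other strand, and P4HB has no capitals. A match is a run of letters and not a measured site.
HSPA5, chr9:125241294-125241593, minus strand: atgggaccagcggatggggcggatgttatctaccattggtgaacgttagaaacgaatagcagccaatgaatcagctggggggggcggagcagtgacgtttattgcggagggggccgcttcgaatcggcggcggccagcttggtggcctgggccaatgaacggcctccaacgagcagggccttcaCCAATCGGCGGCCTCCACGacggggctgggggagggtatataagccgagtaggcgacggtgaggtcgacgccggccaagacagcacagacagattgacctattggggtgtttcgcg
DNAJC10, chr2:182716007-182716306, plus strand: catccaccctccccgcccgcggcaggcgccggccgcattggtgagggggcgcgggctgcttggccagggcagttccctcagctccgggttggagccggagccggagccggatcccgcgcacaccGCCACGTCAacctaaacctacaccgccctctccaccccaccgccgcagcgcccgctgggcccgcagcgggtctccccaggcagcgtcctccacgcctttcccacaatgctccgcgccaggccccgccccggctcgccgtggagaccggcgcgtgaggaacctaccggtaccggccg
P4HB, chr17:81860486-81860785, minus strand: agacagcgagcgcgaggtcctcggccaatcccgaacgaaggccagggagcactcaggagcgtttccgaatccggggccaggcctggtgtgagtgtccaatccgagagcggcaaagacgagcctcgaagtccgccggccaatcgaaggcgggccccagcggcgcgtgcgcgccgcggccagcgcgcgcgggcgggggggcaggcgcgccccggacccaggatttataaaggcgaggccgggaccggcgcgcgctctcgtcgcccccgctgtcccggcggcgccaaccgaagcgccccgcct

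Among the sensors, ERN1 was lower and the other branches did not pass. ERN1 encodes IRE1, the kinase and endonuclease that splices XBP1 mRNA. Its level was 21.9, 19.9 and 20.0 CPM in the 3 siNFE2L3 libraries and 26.0, 26.2 and 25.2 CPM in the 3 siControl libraries. The groups did not overlap, and ERN1 fell by 20.2% (log2 fold change -0.33, SE 0.058, adjusted p = 1.24e-04). ATF6, which is carried to the Golgi and cleaved there under stress, was at 42.9, 42.8 and 41.4 CPM in siNFE2L3 libraries and 42.5, 41.3 and 44.5 CPM in siControl libraries. EIF2AK3, which encodes PERK, the kinase that slows translation by phosphorylating eIF2α, was at 42.1, 44.8 and 44.7 CPM in siNFE2L3 libraries and 45.3, 43.6 and 40.7 CPM in siControl libraries. For both genes the groups overlapped, and the 95% intervals of the log2 fold change were -0.11 to 0.09 for ATF6 and -0.08 to 0.13 for EIF2AK3.

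XBP1, the transcription factor that IRE1 activates, was at 340.0, 313 and 347 CPM in siNFE2L3 libraries and 319.8, 371 and 359 CPM in siControl libraries. The groups overlapped because siControl replicate 1 was low for its group, and the log2 fold change of -0.07 did not pass (adjusted p = 0.315). Without that library XBP1 passed at a log2 fold change of -0.13 (adjusted p = 0.0211). Counts per gene do not separate the spliced from the unspliced form of XBP1, so the activity of IRE1 was not measured here.

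Of the 10 HSP70 and HSP90 chaperones and genes listed with them, the calls were 3 higher (30%) and 1 lower (10%), with 6 not passing. Among all tested genes at or above the CPM of the lowest tested member, 18.1% were higher and 22.2% were lower. HSPA5, or BiP, which binds exposed hydrophobic stretches and also keeps the sensors silent, had 1231, 1277 and 1278 CPM in siNFE2L3 libraries and 1435, 1303 and 1348 CPM in siControl libraries. It fell by 7.34%, with the highest siNFE2L3 library just under the lowest siControl library (log2 fold change -0.11, SE 0.040, adjusted p = 0.0420). The call was lost on leaving out any library other than siControl replicate 2, and without siControl replicate 1 the log2 fold change was -0.071 (adjusted p = 0.183).

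The 3 higher genes of this list encode the J proteins DNAJC10 and DNAJB9 and the factor CRELD2. DNAJC10, or ERdj5, a J protein with thioredoxin domains that reduces disulfides of chains bound for degradation, had 159, 160.0 and 161 CPM in siNFE2L3 libraries and 122, 132 and 123 CPM in siControl libraries. It rose by 27.4% with no overlap (log2 fold change 0.35, SE 0.041, adjusted p = 4.97e-07). DNAJB9, or ERdj4, a J protein that in mammalian cells helps HSPA5 to hold IRE1 inactive, had 45.3, 45.0 and 47.3 CPM in siNFE2L3 libraries and 40.1, 42.5 and 38.1 CPM in siControl libraries. Its groups did not overlap, and it rose by 14.0% (log2 fold change 0.19, SE 0.050, adjusted p = 0.00607). CRELD2, a secreted and ER-resident factor induced by stress, had 22.6, 23.8 and 22.5 CPM in siNFE2L3 libraries and 19.2, 20.8 and 20.4 CPM in siControl libraries. This rise of 13.9% (log2 fold change 0.19, SE 0.058, adjusted p = 0.0173) was no longer called without siControl replicate 1 (log2 fold change 0.16, adjusted p = 0.0603) or without siNFE2L3 replicate 2 (log2 fold change 0.16, adjusted p = 0.0911). DNAJB9 shares 183 exon bases with THAP5 and 99 with PNPLA8 on the opposite strand, and CRELD2 shares 168 with ALG12. The library kit marks strand, and the sources used here do not say whether the counting used it.

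The other 6 genes of this list did not pass. HSP90B1, the HSP90 of the ER, was at 4078, 4504 and 4323 CPM in siNFE2L3 libraries and 4281, 4291 and 4178 CPM in siControl libraries, with the siControl values inside the span of the siNFE2L3 values. HYOU1, which exchanges the nucleotide of HSPA5, was at 386, 409.7 and 406 CPM in siNFE2L3 libraries and 391, 400.3 and 403 CPM in siControl libraries. Their 95% intervals of the log2 fold change were -0.06 to 0.10 for HSP90B1 and -0.07 to 0.09 for HYOU1. DNAJB11, or ERdj3, a J protein that presents chains to HSPA5, was at 298, 311 and 301 CPM in siNFE2L3 libraries and 312, 315 and 336 CPM in siControl libraries. Every siNFE2L3 value of DNAJB11 was below every siControl value, but the log2 fold change of -0.08 did not pass (adjusted p = 0.137), and the gene shares 451 exon bases of its own strand with RP11-134F2.8, itself at 176 CPM. DNAJC3, another J protein, was at a log2 fold change of 0.09 (adjusted p = 0.250). The stress-induced secreted protein MANF was at a log2 fold change of -0.01 (adjusted p = 0.893). SDF2L1, a partner of J proteins and the least abundant tested member by CPM at 6.95 to 7.82, had the widest error, with a log2 fold change of 0.0044 ± 0.089 (SE).

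Neither lectin chaperone passed, and of 4 disulfide isomerases P4HB alone was higher (25%). Of all tested genes at or above the CPM of the lowest tested member, 18.1% were higher and 22.2% were lower. Calreticulin (CALR) and calnexin (CANX) hold glycoproteins while they fold. CALR had 1236, 1334 and 1275 CPM in siNFE2L3 libraries and 1253, 1293 and 1275 CPM in siControl libraries, and the groups overlapped. CANX had 2236, 2336 and 2265 CPM in siNFE2L3 libraries and 2127, 2104 and 2200.5 CPM in siControl libraries. Its groups were apart, and the log2 fold change of 0.09 missed the threshold (adjusted p = 0.0793), although it passed under DESeq2 (adjusted p = 0.0405).

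P4HB, the classical protein disulfide isomerase and also a subunit of collagen prolyl hydroxylase, showed the largest rise of the set. It had 870.0, 875 and 902 CPM in siNFE2L3 libraries and 683, 665 and 701 CPM in siControl libraries. All siNFE2L3 values were well above all siControl values, a rise of 29.1% (log2 fold change 0.37, SE 0.038, adjusted p = 4.91e-08). P4HB also passed a test against a fold of 1.2 (adjusted p = 0.0272), which no other member passed. It shares 529 exon bases with RP11-498C9.2 on the opposite strand, which averaged 21.3 CPM.

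The other isomerases lay close to their control level. PDIA3, the partner of calnexin and calreticulin, had 709, 721 and 744 CPM in siNFE2L3 libraries and 737, 719.8 and 752 CPM in siControl libraries. PDIA4 had 566, 572 and 576 CPM in siNFE2L3 libraries and 532, 575 and 582 CPM in siControl libraries. PDIA6, which in cell studies also binds IRE1, had 391, 430.1 and 415 CPM in siNFE2L3 libraries and 423, 423 and 415 CPM in siControl libraries. All 3 overlapped between groups, and their 95% intervals of the log2 fold change were -0.10 to 0.05 for PDIA3, -0.06 to 0.10 for PDIA4 and -0.11 to 0.05 for PDIA6. The 95% interval of P4HB, 0.29 to 0.45, lay above all of these.

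Both subunits of the SEC61 translocon in the set were lower (100%). Of all tested genes at or above the CPM of the lowest tested member, 22.2% were lower. SEC61A1, which forms the channel itself, had 66.0, 69.8 and 69.2 CPM in siNFE2L3 libraries and 75.2, 78.6 and 80.0 CPM in siControl libraries. It fell by 12.3% (log2 fold change -0.19, SE 0.044, adjusted p = 0.00198), with no overlap of the groups. SEC61B, a small subunit beside the channel, had 9.02, 8.97 and 9.34 CPM in siNFE2L3 libraries and 11.7, 12.7 and 11.6 CPM in siControl libraries. It fell by 24.0%, the largest fall of the set (log2 fold change -0.40, SE 0.075, adjusted p = 2.66e-04). SEC61A1 shares 344 exon bases with RUVBL1 on the opposite strand, and RUVBL1 averaged 134 CPM. Not every SEC61 gene fell. Outside the set, SEC61G was at a log2 fold change of 0.029 (adjusted p = 0.711). SEC61A2 was at a log2 fold change of 0.0040 (adjusted p = 0.979). SEC61G and SEC61A2 were named outside the rule after their values were seen.

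**Figure D3:**
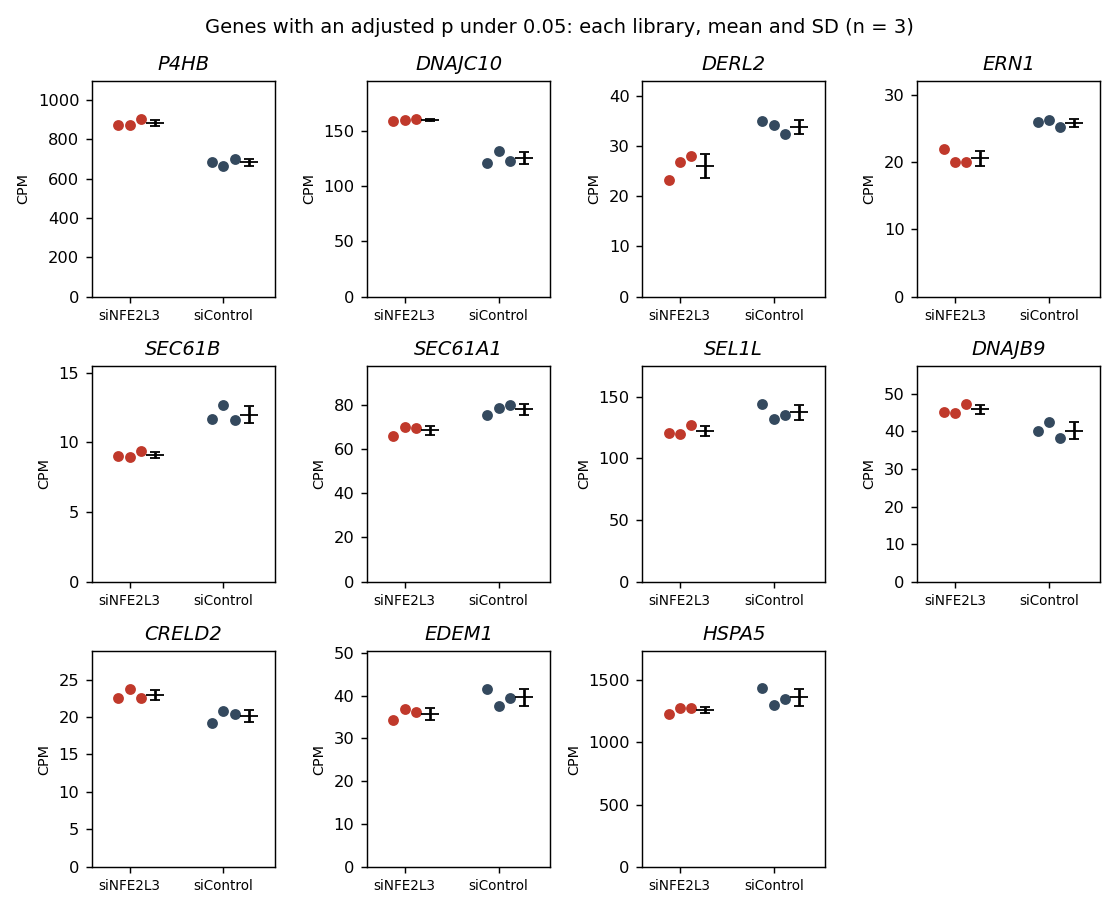
CPM in each library for the 11 genes with an adjusted p under 0.05, with siNFE2L3 libraries in red on the left, siControl libraries in dark blue on the right, and bars for the mean and SD of 3 libraries. The axes start at 0, so the rise of P4HB by 29.1% and the level of SEC61B, which fell by 24.0%, can be read beside the smaller change of HSPA5, which fell by 7.34%.

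In ER-associated degradation, 3 of the 9 tested genes were lower (33.3%) and 6 did not pass. Among all tested genes at or above the CPM of the lowest tested member, 22.2% were lower. SEL1L and SYVN1 (HRD1) form the ubiquitin ligase of this route, DERL1 and DERL2 are membrane proteins of its exit channel, and EDEM1, EDEM2 and EDEM3 trim mannose from glycoproteins and so mark them. DERL2 had 23.3, 26.8 and 28.1 CPM in siNFE2L3 libraries and 35.1, 34.2 and 32.4 CPM in siControl libraries. It fell by 23.1% without overlap (log2 fold change -0.38, SE 0.062, adjusted p = 4.07e-05), and it shares 301 exon bases with MIS12 on the opposite strand. SEL1L had 121, 119 and 127 CPM in siNFE2L3 libraries and 144, 132 and 135 CPM in siControl libraries. Again the groups were apart, and SEL1L fell by 10.7% (log2 fold change -0.16, SE 0.043, adjusted p = 0.00561). EDEM1 had 34.2, 36.9 and 36.2 CPM in siNFE2L3 libraries and 41.6, 37.7 and 39.6 CPM in siControl libraries. EDEM1 fell by 9.68% (log2 fold change -0.15, SE 0.052, adjusted p = 0.0380), the call closest to the threshold after HSPA5. That call was lost on leaving out siControl replicate 1 or 3 or siNFE2L3 replicate 1 or 3 (adjusted p between 0.0717 and 0.189).

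The ligase partner of SEL1L did not pass. SYVN1 had 39.6, 40.9 and 41.3 CPM in siNFE2L3 libraries and 37.2, 38.7 and 37.8 CPM in siControl libraries, so its groups were apart in the other direction, at a log2 fold change of 0.10 that did not pass (adjusted p = 0.135). It shares 398 exon bases of its own strand with FAU, which averaged 136.8 CPM. Among the mannosidase-like genes, EDEM2 had 16.3, 16.8 and 15.5 CPM in siNFE2L3 libraries and 16.8, 18.4 and 18.3 CPM in siControl libraries. Its groups were also apart, at a log2 fold change of -0.14 (adjusted p = 0.112), and it passed without siControl replicate 1 (log2 fold change -0.18, adjusted p = 0.0444). EDEM3 was at a log2 fold change of -0.06 (adjusted p = 0.497) with overlapping groups. DERL1, the relative of DERL2, was at a log2 fold change of -0.03 (95% interval of -0.12 to 0.05). The glycan-reading lectin OS9 was at a log2 fold change of -0.02 (95% interval of -0.09 to 0.06), and HERPUD1, which helps to assemble the ligase, was at a log2 fold change of -0.07 (95% interval of -0.19 to 0.05). In all, 8 of the 9 estimates were below 0, beside 9976 of the 19916 tested genes. Only 3 of the 9 were called, and the list was not tested as a set.

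WFS1, an ER membrane protein whose loss causes Wolfram syndrome, had 14.2, 15.1 and 15.4 CPM in siNFE2L3 libraries and 13.7, 14.5 and 13.4 CPM in siControl libraries. The groups overlapped, and the 95% interval of its log2 fold change was -0.04 to 0.24.

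Around these genes, 104 further ER genes in 8 lists were counted in the same fit, and 102 were tested. In all 20 were lower (19.6%, beside 14.0% of all tested genes) and 22 were higher (21.6%, beside 12.7%), with a median log2 fold change of 0.014. At or above the CPM of the lowest tested member, 19 of 97 related genes were lower (19.6%, beside 22.2% of all tested genes there). Of the same 97 genes, 21 were higher (21.6%, beside 18.1%), so the shares were near the background above this floor. The lists were not tested as sets. Below, the share among all tested genes of each list stands beside that of all tested genes at or above this CPM. That background is 22.2% lower and 18.1% higher.

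**Figure D4:**
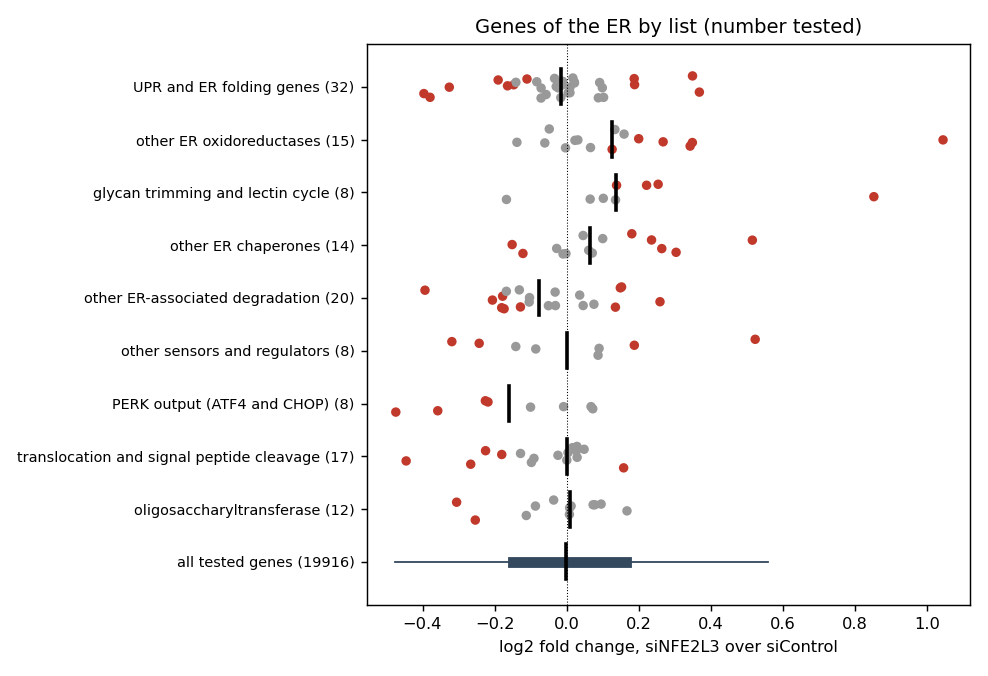
Log2 fold change of siNFE2L3 over siControl for each gene (points, red where the adjusted p was under 0.05) of the 32 folding genes and of 8 further ER lists, with black bars for medians. The blue bar and line give the quartiles and the 5th to 95th percentile of all 19916 tested genes (-0.48 to 0.56), and PRDX4 and GANAB stand outside that range.

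Of 15 tested further oxidoreductases, 6 were higher (40%, beside 18.1%) and 9 did not pass, with a median log2 fold change of 0.13. PRDX4, the ER peroxiredoxin that uses peroxide to make disulfides, had 68.7, 64.7 and 73.7 CPM in siNFE2L3 libraries and 32.2, 36.5 and 31.6 CPM in siControl libraries, at a log2 fold change of 1.05 (SE 0.057, adjusted p = 1.17e-12). ERO1A, the oxidase that recharges P4HB, had 114, 114 and 121 CPM in siNFE2L3 libraries and 96.4, 96.5 and 97.4 CPM in siControl libraries, at a log2 fold change of 0.27 (adjusted p = 2.11e-05). Both sets of libraries were apart. The isomerases PDIA5, at a log2 fold change of 0.35 (adjusted p = 4.22e-06), and TXNDC5, at a log2 fold change of 0.34 (adjusted p = 6.32e-06), also rose. TXNDC5 shares 2658 bases of its own strand, 60.6% of its exons, with the read-through gene BLOC1S5-TXNDC5, and PDIA5 shares 490 with SEC22A, so their counts are uncertain.

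Of 8 genes of glycan trimming and the lectin cycle, 4 were higher (50%, beside 18.1%) and 4 did not pass. Their median log2 fold change was 0.14. GANAB, the catalytic subunit of glucosidase II, which removes glucose so that calnexin can bind and release its clients, had 205, 204 and 207 CPM in siNFE2L3 libraries and 119, 109 and 113 CPM in siControl libraries. Its log2 fold change was 0.85 (SE 0.041, adjusted p = 1.15e-13), whereas PRKCSH, the other subunit of the enzyme, was at a log2 fold change of 0.066 (adjusted p = 0.201). PRKCSH is named outside the rule and was chosen after its values were seen. UGGT2, at a log2 fold change of 0.25 (adjusted p = 7.44e-04), the mannosidase MAN1B1, at a log2 fold change of 0.22 (adjusted p = 1.67e-04), and the lectin MLEC, at a log2 fold change of 0.14 (adjusted p = 0.0266), rose as well, and the call of MLEC was lost on leaving out siControl replicate 2 or 3 or siNFE2L3 replicate 1 or 3.

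Of 14 other ER chaperones, 5 were higher (35.7%, beside 18.1%) and 2 were lower (14.3%, beside 22.2%). The lower calls were 0 without siNFE2L3 replicate 1 or 3. MESDC2, which folds receptors of the LDL receptor family, had 75.4, 83.6 and 77.8 CPM in siNFE2L3 libraries and 56.4, 55.8 and 53.4 CPM in siControl libraries, at a log2 fold change of 0.52 (adjusted p = 7.77e-09). The other 3 with the smallest p were CNPY4, at a log2 fold change of 0.30 (adjusted p = 3.27e-04), and the prolyl isomerases FKBP10, at a log2 fold change of 0.18 (adjusted p = 9.09e-04), and FKBP14, at a log2 fold change of 0.26 (adjusted p = 0.00497).

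PERK raises translation of ATF4, which in turn switches on a set of stress genes. Of 8 genes listed with the PERK output, 4 were lower (50%, beside 22.2%) and 4 did not pass, with a median log2 fold change of -0.16. CHAC1, 1 of the lower genes, averaged 3.36 CPM in siNFE2L3 cells and 4.66 CPM in siControl cells. That is under the 7.25 CPM floor of the background. ATF3, a stress-induced transcription factor, had 44.3, 43.9 and 41.4 CPM in siNFE2L3 libraries and 48.5, 57.7 and 59.7 CPM in siControl libraries, at a log2 fold change of -0.36 (adjusted p = 5.80e-05). DDIT3, or CHOP, which promotes cell death in lasting stress, had 103, 104 and 105 CPM in siNFE2L3 libraries and 122, 118 and 125 CPM in siControl libraries, at a log2 fold change of -0.23 (adjusted p = 1.46e-04). It shares 355 exon bases with MARS on the opposite strand. PPP1R15B, which restores translation, was at a log2 fold change of -0.22 (adjusted p = 6.55e-04), and CHAC1, which degrades glutathione, was at a log2 fold change of -0.47 (adjusted p = 0.00710), a call lost without siControl replicate 3 or siNFE2L3 replicate 2. ATF4 had 433, 434 and 441 CPM in siNFE2L3 libraries and 429.6, 436 and 449.9 CPM in siControl libraries (adjusted p = 0.905). TRIB3, at a log2 fold change of 0.073 (adjusted p = 0.407), and ASNS, at 0.068 (adjusted p = 0.269), lay above 0. PPP1R15A was at a log2 fold change of -0.10 (adjusted p = 0.0758). ATF4, TRIB3, ASNS and PPP1R15A did not pass and were named outside the rule after their values were seen.

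Of 17 further genes of translocation and signal peptide cleavage, 4 were lower (23.5%, beside 22.2%) and 1 was higher (5.88%, beside 18.1%). TRAM2, a membrane protein of the translocon, had 84.6, 82.5 and 81.9 CPM in siNFE2L3 libraries and 115, 112 and 113 CPM in siControl libraries, at a log2 fold change of -0.45 (adjusted p = 8.04e-09). The signal peptidase subunits SEC11C, at a log2 fold change of -0.27 (adjusted p = 6.26e-04), and SPCS1, at a log2 fold change of -0.18 (adjusted p = 0.00899), fell, and SEC63, a J protein of the channel, rose, at a log2 fold change of 0.16 (adjusted p = 0.00377). SPCS1 shares 2698 bases, 50.7% of its exons, with NEK4 on the opposite strand. Of 12 oligosaccharyltransferase genes, 2 were lower (16.7%, beside 22.2%) and 10 did not pass. The lower genes were STT3B, a catalytic subunit, at a log2 fold change of -0.31 (adjusted p = 1.44e-06), and MAGT1, at a log2 fold change of -0.25 (adjusted p = 0.00308).

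The 20 further degradation genes were split, with 6 lower (30%, beside 22.2%) and 4 higher (20%, beside 18.1%). SVIP, an inhibitor of this route that binds VCP, was at a log2 fold change of -0.39 (adjusted p = 6.84e-05), and FAF2, which recruits VCP, was at a log2 fold change of -0.18 (adjusted p = 0.00257). UFD1L, a cofactor of VCP, was at a log2 fold change of 0.26 (adjusted p = 3.14e-04), and VIMP, a membrane partner of VCP, was at a log2 fold change of 0.15 (adjusted p = 0.0118), which was not called without siNFE2L3 replicate 3. The counts of this list moved with single libraries, to 3 lower without siNFE2L3 replicate 2 and to 2 higher without siControl replicate 3 or siNFE2L3 replicate 3. Of 8 further sensors and regulators, 2 were lower (25%, beside 22.2%) and 2 were higher (25%, beside 18.1%). TMBIM6, an ER membrane protein that restrains IRE1, was at a log2 fold change of -0.32 (adjusted p = 1.11e-06), and MBTPS2, a protease that cleaves ATF6, was at a log2 fold change of -0.24 (adjusted p = 0.00507). CREB3L1, at a log2 fold change of 0.52 (adjusted p = 0.00590), and CREB3L2, at a log2 fold change of 0.19 (adjusted p = 0.00175), are membrane-bound relatives of ATF6. CREB3L1 averaged 3.29 CPM in siNFE2L3 cells and 2.29 CPM in siControl cells, under the 7.25 CPM floor of the background. MBTPS2 shares 1093 exon bases of its own strand with YY2.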

How the data were processed

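RNA-seq of 786-O cells was analysed in 3 siNFE2L3 and 3 siControl libraries, grouped by their titles. According to the study's methods and the processing notes of the submitters, the authors used Trimmomatic 0.36 for trimming, merged reads that shared a molecular identifier, aligned them with STAR 2.5.3a to the Ensembl human genome and ran featureCounts (Subread 1.5.1) on exons. The values deposited are the raw counts, not normalized, with gene coordinates that match GRCh38, and the deposited exon length of each gene was used for RPKM. Of the nonzero counts under 30, 67.6% to 69.9% per library were even, so halved counts were tried as an alternative.

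From the counts, genes were kept by filterByExpr (minimum count 10), scaled by TMM and tested on the whole table with the quasi-likelihood test of edgeR 4.0.16 in R 4.3.3, without a replicate block. P-values were adjusted by Benjamini-Hochberg over the 19916 tested genes, and each SE and 95% interval was computed from the estimate and its F value. The biological coefficient of variation was 4.76%, and 3 against 3 libraries allow no exact permutation p below 0.1. The script was tested on simulated counts. Every pair of replicates differed by more than sampling noise. Alternatives were RLE and upper quartile scaling, DESeq2 1.42.0, limma-voom (limma 3.58.1), the exact test of edgeR, no filter, a filter of 10 counts in every library, halved counts, a replicate block, testing against a fold of 1.2 and removal of each library in turn.

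The 33 genes and the further lists were chosen with earlier results of these data known. All 33 are named, as are from each further list up to 4 genes with the smallest adjusted p under 0.05. Exon overlaps with other genes were found in 19 of the 33 genes, 3 of them on the same strand, and near copies such as PDIA3P1 held 225 to 307 counts beside at least 38236 of PDIA3. Promoters came from RefSeq (GRCh38.p14) and were searched in Python 3.11.15. Protein sequences were not analysed here.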

Additional observations from a re-analysis of the deposited data

How the results depend on the processing

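For the 32 tested genes, 16 alternative settings gave 512 values, of which 481 stayed on their side of the threshold, 26 lost and 5 gained the call. No called value changed sign, and 19 values of 10 genes that were not called did, at up to 0.053 on the log2 scale. P4HB was called under all 16. ERN1, SEC61A1, SEC61B, SEL1L, DERL2, DNAJC10 and DNAJB9 lost the call only in the test against a fold of 1.2, which left 0 genes lower and 1 higher, and among the related genes 1 lower and 3 higher. HSPA5, EDEM1 and CRELD2 lost it there too. HSPA5 and EDEM1 lost it as well under upper quartile scaling (adjusted p = 0.119 and 0.0784), and HSPA5 under the exact test of edgeR (adjusted p = 0.0508). CANX gained the call under upper quartile scaling, DESeq2 and limma-voom (adjusted p from 0.0358 to 0.0427). Leaving out 1 library gave 5 to 7 genes lower and 3 to 4 higher, and 14 to 21 related genes lower and 17 to 23 higher. Of the 30 related genes named, 27 kept their call under every setting other than the fold of 1.2. Deviations of same-numbered libraries correlated at -0.067 to -0.018, so no shared effect of the replicate number was seen. With 3 libraries per group this cannot exclude that cultures were paired. The fit with a replicate block gave 5 genes lower and 4 higher, without HSPA5 (log2 fold change -0.11, adjusted p = 0.0899) and EDEM1 (-0.15, adjusted p = 0.0709). Precision was limited by the spread between 3 libraries, with SEs of 0.037 to 0.089 on the log2 scale.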
